A study of Mus musculus with 8 samples.

Results

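Collagens, laminins and integrins were examined in mouse tumour organoids. The genes were chosen by symbol: every protein coding gene named Col, Lam or Itg in the pattern of a numbered collagen chain, a laminin chain or a numbered integrin subunit. The pattern found 76 of 45777 listed genes: 44 collagen, 11 laminin and 21 integrin genes. It leaves out integrin chains named by letter, such as Itgav, which are given separately where they matter.

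The study measured 8 organoid cultures, 1 RNA-seq library each, all labelled as wild type and as related to metabolic dysfunction-associated steatohepatitis (MASH). The parental group, labelled control, held 4 lines of hepatocellular carcinoma (HCC) organoids, SNU-6621 with SNU-6622 and SNU-6624 with SNU-6625. The last 2 lines also gave 1 culture each treated with lenvatinib, an inhibitor of several receptor tyrosine kinases, and 1 lenvatinib-resistant culture, SNU-6624-TO-LEN and SNU-6625-TO-LEN, whose treatment label is control. The dose and time of lenvatinib, the age of the mice and the way resistance was raised are not stated in the sources at hand. Nothing in the labels says that cultures of 1 line were grown separately. With 1 library per line and condition, a p-value here reflects how far the 2 lines differed in their changes between conditions. Technical spread is mixed into that difference. Spread between repeat cultures of 1 line was not measured.

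Laminins are 3-chain proteins, each with an alpha, a beta and a gamma chain, and they form the sheet of the basement membrane on which epithelium sits. Type IV collagen forms the second network of that sheet, while fibrillar collagens such as types I and III are made mainly by fibroblasts and, in scarred liver, by stellate cells. Integrins are receptors of an alpha and a beta chain that hold cells to these proteins and signal from them. The integrin of alpha-6 and beta-4 chains binds the epithelial laminin that holds the Lama3 and Lamb3 chains and anchors it to keratin in hemidesmosomes.

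Total counts ran from 49011663 to 61032387 per library. The value used below is CPM, counts scaled by the library total. A value of 0 allows up to 3 counts, which was 0.0492 to 0.0612 CPM and covers counting error only. The defining epithelial genes Epcam, Krt8, Krt18, Krt19, Krt7 and Cdh1 were present in all 8 libraries, at a summed 9676 to 12720 CPM in parental, 4363 to 4746 in lenvatinib and 18020 to 19860 CPM in resistant libraries. The lower lenvatinib sum came from the keratins. In SNU-6624 and SNU-6625, Krt19 had 2909 and 3079 CPM in parental and 266.9 and 404.6 CPM in lenvatinib libraries. Epcam had 374.4 and 475.9, then 352 and 402 CPM, and Cdh1 was higher, at 606.5 and 651.6, then 977 and 730.8 CPM. Of 5 hepatocyte genes, Alb, for albumin, had 0 counts in all 8 libraries, and Ttr, Apoa1 and Afp reached at most 1.45 CPM. The other, Hnf4a, had 90.95 to 148.9 CPM in parental, 109.3 and 120.7 in resistant, and 5.59 and 10.92 CPM in lenvatinib libraries. Of 12 fibroblast and stellate cell genes 7 had at most 3 counts in each library, among them Lum, Dcn, Acta2 and Pdgfrb. The same held for 5 of 8 endothelial genes, Cdh5 and Kdr among them, and for 5 of 9 leukocyte genes, including Ptprc, while Cd68 and Cd14 were present. The share of ribosomal RNA genes was 0.0942% to 0.1103% in parental and 0.0411% to 0.0533% in lenvatinib and resistant libraries, and the part of that difference in the results was not tested.

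The 76 genes together held 0.582% to 1.217% of all counts. Of them, 18 had 0 counts in all 8 libraries and 21 had at most 3 counts in each. At least 10 CPM in every parental line was reached by 19 of 76, or 25% (7 laminins, 7 integrins and 5 collagens), and by 38.6% of all protein coding genes. Reads per gene grow with transcript length, so levels were compared between genes as CPM per kilobase of the longest matching GENCODE transcript, which was found for all 76 genes.

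A laminin chain, Lama5, had the highest mean level per length of these genes in the parental lines, within the spread of Itgb4 (184 ± 78.1 CPM per kilobase). Itgb4 was above Lama5 in SNU-6621 (290 against 180) and in SNU-6625 (189.3 against 186.9). Itga3, at 268, was also above it in SNU-6621. Lama5, the alpha-5 chain found in most epithelial basement membranes, had 193 ± 11.3 CPM per kilobase (mean ± SD, n = 4 lines). Its level differed little between lines: 2055 and 2332 CPM in SNU-6621 and SNU-6622, 2277 CPM in SNU-6624 and 2128 CPM in SNU-6625. Lamb3 had 34.4 ± 7.69, Lamb2 28.1 ± 6.86, Lamc1 23.6 ± 2.80, Lamb1 11.6 ± 15.2 and Lama3 8.71 ± 8.29 CPM per kilobase. Lamb3, Lamb2 and Lamc1, neighbours in this order, lay within their spread of each other. Lama1 and Lama2 had 0 counts in all 8 libraries, and Lama4 and Lamc3 reached at most 0.29 and 0.426 CPM.

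Lama3 and Lamb3, which join in the epithelial laminin, were not equal. Lama3 per kilobase was 0.0934 to 0.492 of Lamb3 in the parental lines. These are ratios of transcripts, and how many reads each chain's isoforms draw was not measured.

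Integrin genes at high levels were those of laminin receptors and the common beta-1 chain. Per kilobase, Itgb4 had 184 ± 78.1, Itgb1 144 ± 12.9, Itga3 131 ± 92.6 and Itga6 98.4 ± 28.2 CPM (mean ± SD, n = 4 lines), and neighbours in this order lay within their spread. Itga3 encodes the alpha chain that pairs with beta-1 to bind laminin. Next came Itgb5 at 17.5 ± 12.5 and the collagen receptor chain Itga2 at 9.14 ± 13.9 CPM per kilobase. Itga7, a laminin receptor chain best known from muscle, had 6.42 ± 1.25 and Itgb6 2.35 ± 0.145 CPM per kilobase. Itgav, the partner of the beta-5 and beta-6 chains and not among the 76 genes, had 214, 146, 134 and 125 CPM in the 4 parental lines. Itga4, Itga8, Itga11, Itgb3 and Itgb2l had 0 counts in all 8 libraries.

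Among collagens, basement membrane chains led by mean level, but the order differed by line. Col18a1, whose cleaved end is endostatin, had 47.1 ± 38.2 CPM per kilobase. Col4a2 had 21.0 ± 12.6 and Col4a1 19.8 ± 11.4, the pair that makes the common type IV collagen molecule. Col20a1 (7.53 ± 1.42) and the type IV chain Col4a5 (6.64 ± 2.93 CPM per kilobase) came next. Per kilobase, Col18a1 had 103 CPM in SNU-6621 and 18.6 to 37.4 CPM in the other parental lines. In SNU-6621, Col4a1 (3.90) and Col4a2 (3.50) lay below Col27a1 (10.4) and Col20a1 (7.92 CPM per kilobase). Of the fibrillar collagens, Col3a1, Col5a2 and Col11a1 had 0 counts in all 8 libraries, Col1a2 at most 0.03 CPM, Col5a1 at most 0.21 CPM, and Col1a1 at most 1.10 CPM. Col27a1 and Col11a2, described below, were well above the floor in the parental lines. Bulk libraries cannot tell fewer cells of a type from less RNA per cell.

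**Figure D1:**
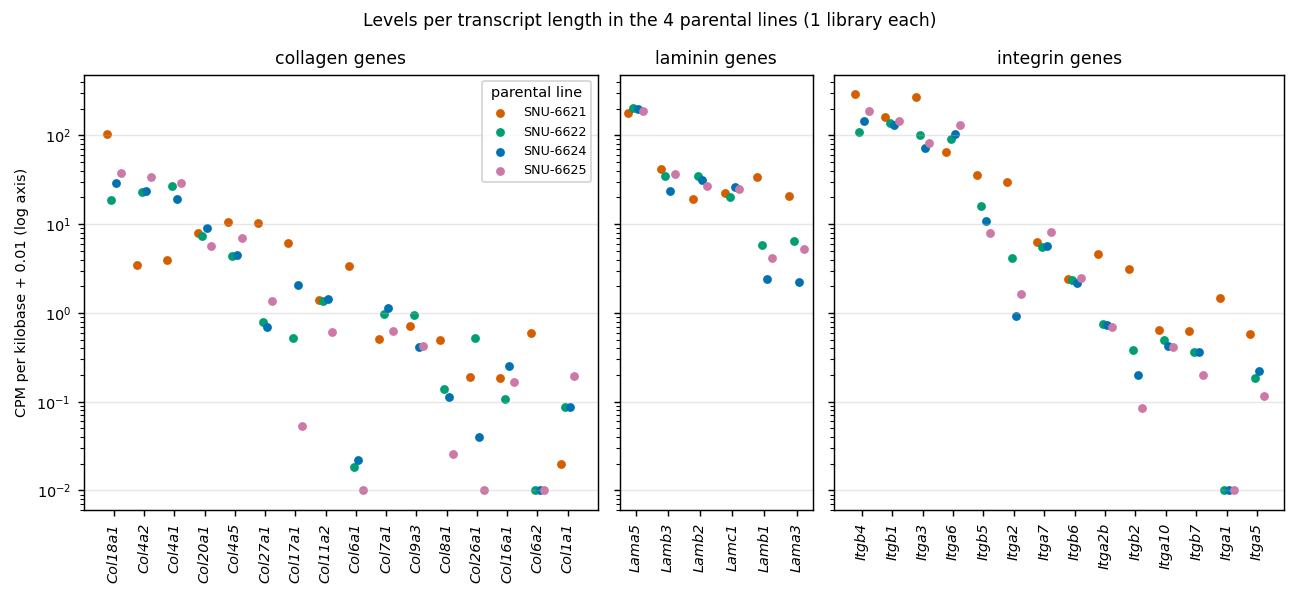
Level per transcript length in CPM per kilobase, with 0.01 added, on a log axis, for reported genes with at least 1 CPM in a parental line, grouped as collagens, laminins and integrins. Each dot is 1 parental library, coloured by line; Lama5 and Itgb1 dots lie close together, whereas SNU-6621 lies above the other lines in Lamb1, Itga2, Itgb2 and Col27a1 and below them in Col4a1 and Col4a2.

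Line SNU-6621 stood apart. Of the 37 genes with at least 1 CPM in a parental line, 15 were at least 2-fold higher there than in the next line (on CPM + 0.5), against 8.22% of the 12667 protein coding genes with the same level. No such gap was found for any of the 37 in the other lines, where the share of protein coding genes was 1.56% in SNU-6622, 0.395% in SNU-6624, then 0.987% in SNU-6625. With 1 library per line, these gaps have no test. A gene could reach 1 CPM through SNU-6621 alone, as Itga1, Col6a1, Col6a2, Col8a1 and Itga5 did. The protein coding genes were held to the same rule. The count of 15 is therefore a description only.

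The collagen receptor chain Itga2 had 212 CPM in SNU-6621, 29.7 in SNU-6622, 6.56 in SNU-6624 and 11.5 CPM in SNU-6625. Itga1, another collagen receptor chain, had 16.0 CPM in SNU-6621 and 0 counts in the other 7 libraries. Its bounds overlap those of Pelo by 1804 bases (mean 13.1 CPM for Pelo), and reads of overlapping genes cannot be told apart for certain. Lamb1 had 198, 33.3, 14.0 and 23.7 CPM and Lama3 219.9, 68.5, 23.5 and 55.4 CPM in the same order of lines. Itga3 had 1305, 497, 349 and 395 CPM, and Itgb5 had 117, 51.9, 35.2 and 26.0 CPM.

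The same line had collagen transcripts that were nearly absent elsewhere. Col6a1, a chain of the beaded filament collagen VI, had 13.7 CPM there and at most 0.05 CPM in each of the other 7 libraries. Its partner Col6a2 had 2.75 CPM and at most 0.08 CPM elsewhere, while Col6a3, the third chain, had 0 counts in SNU-6621. Col27a1, a fibrillar type best known from cartilage, had 79.0, 5.94, 5.25 and 10.3 CPM in the 4 parental lines. Col17a1, a transmembrane collagen of hemidesmosomes, had 33.9, 2.85, 11.5 and 0.245 CPM.

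Col4a1 and Col4a2 went the other way. Col4a1 had 25.8 CPM in SNU-6621 and 177, 128 and 193 CPM in the other 3 lines. Col4a2 had 22.6 CPM there and 150.0, 152 and 217 CPM in the others. They were the 2 of 37 genes at least 2-fold lower in SNU-6621 than in every other line, against 3.64% of protein coding genes.

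Some markers of other cells were also highest in SNU-6621. The summed level of the 12 fibroblast and stellate cell genes was 26.5 CPM there and 1.37 to 6.85 CPM in the other parental lines, carried mostly by the retinol enzyme gene Lrat with 1238 counts. Vim had 120 counts, while Lum, Dcn, Acta2, Thy1 and Pdgfrb were at 0. The summed level of the 8 endothelial genes was 13.3 CPM against 0.974 to 1.26 CPM, carried by the adhesion gene Esam with 616 counts, with Cdh5 and Kdr at 0. Their part in the collagen and integrin levels was not tested.

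The genes Col4a1 and Col4a2 lie head to head on chromosome 8 in mm10 (Col4a1 at 11198423 to 11312889, Col4a2 at 11312805 to 11449287), and their windows are shown because both genes were lowest in SNU-6621. RefSeq windows of GRCm38.p6, from 250 bases before to 50 after a transcript start, put the 2 starts 21 bases apart. The Col4a1 window is chr8:11312777-11313076 on the minus strand and the Col4a2 window chr8:11312555-11312854 on the plus strand. The Lamb1 window, chr12:31265043-31265342 on the plus strand, is shown because Lamb1 passed the test in the last comparison below. Capitals mark the GGGCGG box of SP and KLF factors and the CCAAT box, on either strand.
Col4a1: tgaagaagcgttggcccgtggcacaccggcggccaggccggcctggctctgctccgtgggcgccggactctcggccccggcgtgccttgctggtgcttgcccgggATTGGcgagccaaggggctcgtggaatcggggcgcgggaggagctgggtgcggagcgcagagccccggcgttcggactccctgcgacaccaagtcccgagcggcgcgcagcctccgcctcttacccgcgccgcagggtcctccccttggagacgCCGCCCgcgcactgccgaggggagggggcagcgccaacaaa
Col4a2: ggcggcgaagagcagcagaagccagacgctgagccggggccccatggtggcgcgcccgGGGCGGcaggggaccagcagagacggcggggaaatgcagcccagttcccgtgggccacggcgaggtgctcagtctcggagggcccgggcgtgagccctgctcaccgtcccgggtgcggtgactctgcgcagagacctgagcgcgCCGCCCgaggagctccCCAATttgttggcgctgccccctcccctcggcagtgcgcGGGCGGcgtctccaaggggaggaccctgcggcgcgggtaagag
Lamb1: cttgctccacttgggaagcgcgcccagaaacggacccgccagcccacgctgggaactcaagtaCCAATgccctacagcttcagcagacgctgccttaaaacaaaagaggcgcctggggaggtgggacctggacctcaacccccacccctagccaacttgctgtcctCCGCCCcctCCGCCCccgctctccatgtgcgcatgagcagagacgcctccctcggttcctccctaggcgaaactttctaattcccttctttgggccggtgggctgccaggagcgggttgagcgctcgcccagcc
The Col4a1 window held 1 GGGCGG and 1 CCAAT match, the Col4a2 window 3 and 1, and the Lamb1 window 2 and 1. The 2 type IV windows share 78 bases, so some matches are the same site. Over all 32851 RefSeq windows, 35.7% held GGGCGG and 37.4% held CCAAT. The AP-1 site, TGA and TCA with 1 base between, was in 7.81% of all windows and in none of these 3; TATAAA (13.6%) and the TEAD motif GGAATG (14.7%) were not found in them either. Itgb6, called in the same comparison as Lamb1, has 2 RefSeq windows, and neither held any of the 5 motifs. A match is a description of letters and not a bound site.

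Col4a1 and Col4a2 stayed close in every library. Per kilobase, Col4a2 was 0.868 to 1.22 of Col4a1 in the parental lines, 1.29 and 1.41 in the lenvatinib libraries and 1.40 and 1.30 in the resistant libraries. Itga6 and Itgb4, the 2 chains of the hemidesmosome integrin, kept a ratio of 0.582 to 0.830 in 7 libraries and 0.224 in parental SNU-6621.

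The next question is what differed after lenvatinib in the 2 lines that have all 3 conditions. Lama3, the alpha chain of the epithelial laminin, fell and was the gene that passed the test. In SNU-6624 it had 23.5 CPM in the parental, 3.18 in the lenvatinib and 12.1 CPM in the resistant library. In SNU-6625 these were 55.4, 4.73 and 13.6 CPM; pairs of values below keep this order of lines. Both lenvatinib values were below all 6 others. Against parental its log2 change came to -3.32 (SE 0.30, edgeR quasi-likelihood adjusted p = 0.0323). Of the 76 genes, 40 passed the filter on low counts (20 collagens, 7 laminins, 13 integrins); a gene could pass through 1 group alone. Lama3 was 1 of 40 called, where called means an adjusted p under 0.05, and 5.78% of 17038 genes tested were called (4.08% lower). None of the 40 was called higher (1.7% of all genes), and 13 of 40 had an unadjusted p under 0.05 (31.8%). The sum of the epithelial genes above also differed by condition, and its part in these results was not tested. The call was lost when any 1 of the parental or lenvatinib libraries of these lines was left out (adjusted p up to 0.250), and held in 10 of 14 settings in all. Counts of calls moved with the libraries and the tool: 24 of 43 genes were called without resistant SNU-6624 (43.3% of all genes), 23 of 42 without resistant SNU-6625 (43.7%), and 11 of 40 by DESeq2 (21.4%). The medians of the log2 fold change were 0.11 over the 40 genes and -0.01 over all genes.

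Lamb3, the beta chain that joins Lama3, had 97.0 and 147 CPM in parental and 40.3 and 47.5 CPM in lenvatinib libraries, a log2 difference of -1.51 (SE 0.34, edgeR adjusted p = 0.0726, not called). The values of the 2 groups did not overlap, a description with no share over all genes beside it. The ratio of Lama3 to Lamb3 per kilobase was 0.0934 and 0.145 in parental and 0.0304 and 0.0382 in lenvatinib libraries.

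The laminin chains of other trimers were closer to parental. Lama5 had 2188 and 2125 CPM after lenvatinib, inside the parental range, with a log2 fold change of -0.11 (SE 0.35). Lamc1, the common gamma chain, had 202 and 191 CPM in parental and 405 and 331 CPM in lenvatinib libraries (0.83, SE 0.37, edgeR adjusted p = 0.205). Both values lay above all 4 parental lines. Lamb1 had 14.0 and 23.7 CPM in parental and 11.9 and 19.1 CPM in lenvatinib libraries (-0.35, SE 0.16), and Lamb2 had 179 and 149.8, then 120.2 and 83.4 CPM.

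**Figure D2:**
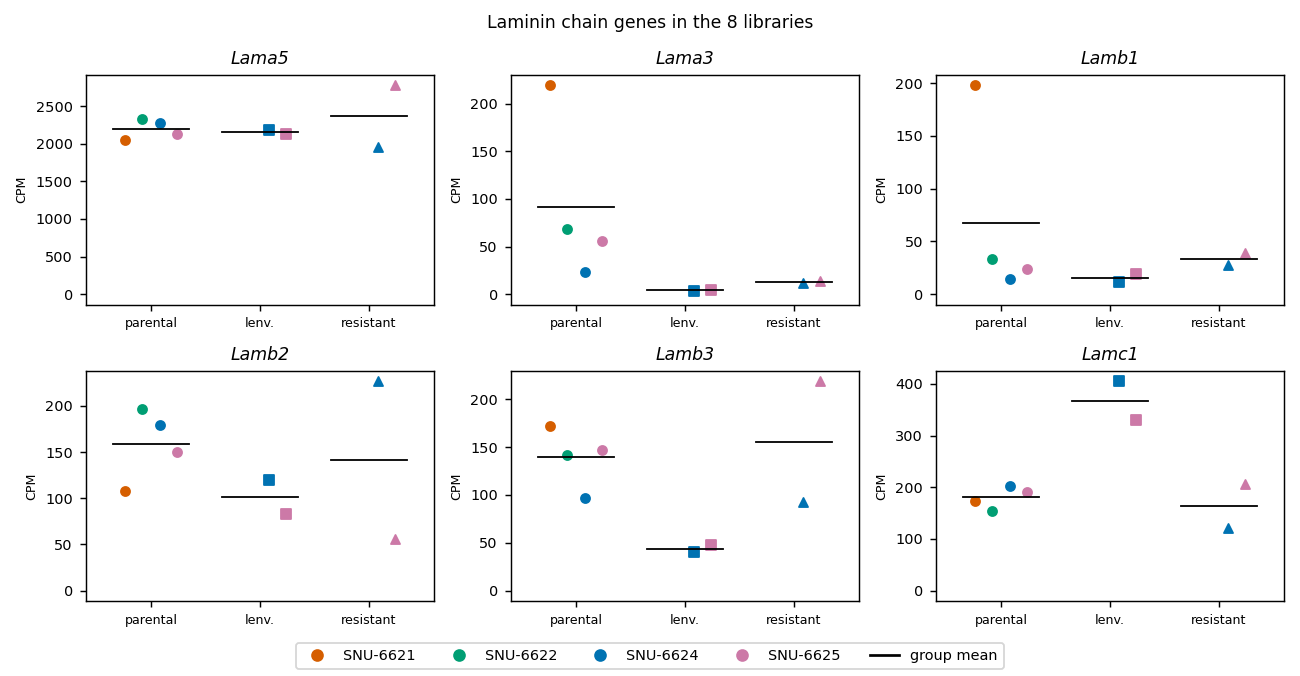
CPM of 6 laminin chain genes in the 8 libraries, by group on the horizontal axis; each marker is 1 library coloured by line and the bar is the mean of the group (4 parental, 2 lenvatinib, 2 resistant). Lama3 and Lamb3 are lowest in both lenvatinib libraries, Lamc1 is highest there, and Lama5 lies between 1953 and 2781.

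No integrin gene was called after lenvatinib, yet several values lay outside the parental ones. Itga7 had 22.7 and 33.1 CPM in parental and 5.16 and 5.0 CPM in lenvatinib libraries. Its log2 difference was -2.57 (SE 0.50, edgeR adjusted p = 0.0609). Itga2 had 6.56 and 11.5, then 0.884 and 2.54 CPM (-2.76, SE 0.91, edgeR adjusted p = 0.128). Itgb4 had 892 and 1166, then 439.8 and 433 CPM (-1.27, SE 0.41, edgeR adjusted p = 0.125). Its partner Itga6 had 451 and 572 CPM in parental and 251 CPM in each lenvatinib library (-1.06, SE 0.48, edgeR adjusted p = 0.208).

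The remaining receptor chains differed in direction. Itgb1 had 496 and 555, then 496 and 459 CPM (-0.20, SE 0.27), and Itga3 had 349 and 395, then 403 and 503 CPM (0.19, SE 0.36). Itgb5 had 35.2 and 26.0, then 74.9 and 63.9 CPM (1.10, SE 0.35, edgeR adjusted p = 0.122); parental SNU-6621, at 117 CPM, was higher still. Itgb6, whose product with the alpha-v chain activates TGF-beta, had 10.3 and 12.0, then 7.51 and 7.08 CPM (-0.68, SE 0.28); both lenvatinib values lay below all 4 parental lines.

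**Figure D3:**
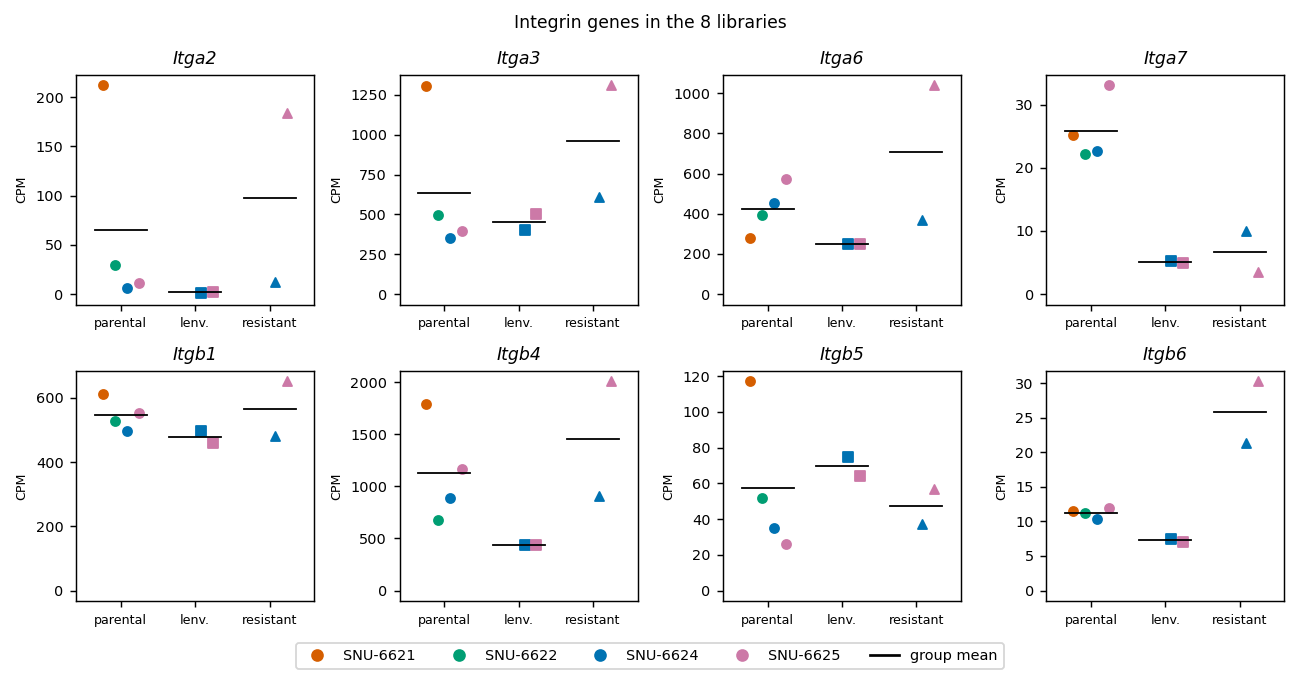
CPM of 8 integrin genes in the 8 libraries, drawn as for the laminins. Itgb4, Itga6 and Itga2 are lowest in the 2 lenvatinib libraries, and resistant SNU-6625 is highest in Itga6, Itgb4 and Itgb6.

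Collagens showed the widest gaps after lenvatinib and none was called. Col11a2, a chain of a minor fibrillar collagen, had 8.58 and 3.65 CPM in parental and 43.5 and 62.6 CPM in lenvatinib libraries (log2 fold change 2.94, SE 0.74, edgeR adjusted p = 0.0835). Col7a1, which forms the fibrils that tie the basement membrane to the tissue below, had 10.4 and 5.73, then 31.3 and 39.0 CPM (1.99, SE 0.55, edgeR adjusted p = 0.0993). Col9a3 had 1.16 and 1.18, then 3.36 and 5.04 CPM. For each of these 3 genes both lenvatinib values were above all 4 parental lines.

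Col27a1 and Col17a1 were lower. Col27a1 had 5.25 and 10.3, then 0.336 and 0.349 CPM (-4.66, SE 1.05, edgeR adjusted p = 0.0717). Col17a1 had 11.5 and 0.245, then 0.141 and 0.0552 CPM (-5.0, SE 1.36, edgeR adjusted p = 0.0958), and in SNU-6625 it was low in all 3 conditions. Col4a1 (128 and 193, then 109.6 and 148 CPM), Col4a2 (152 and 217, then 138 and 203 CPM) and Col18a1 (149 and 189, then 173 and 179.5 CPM) overlapped between groups.

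**Figure D4:**
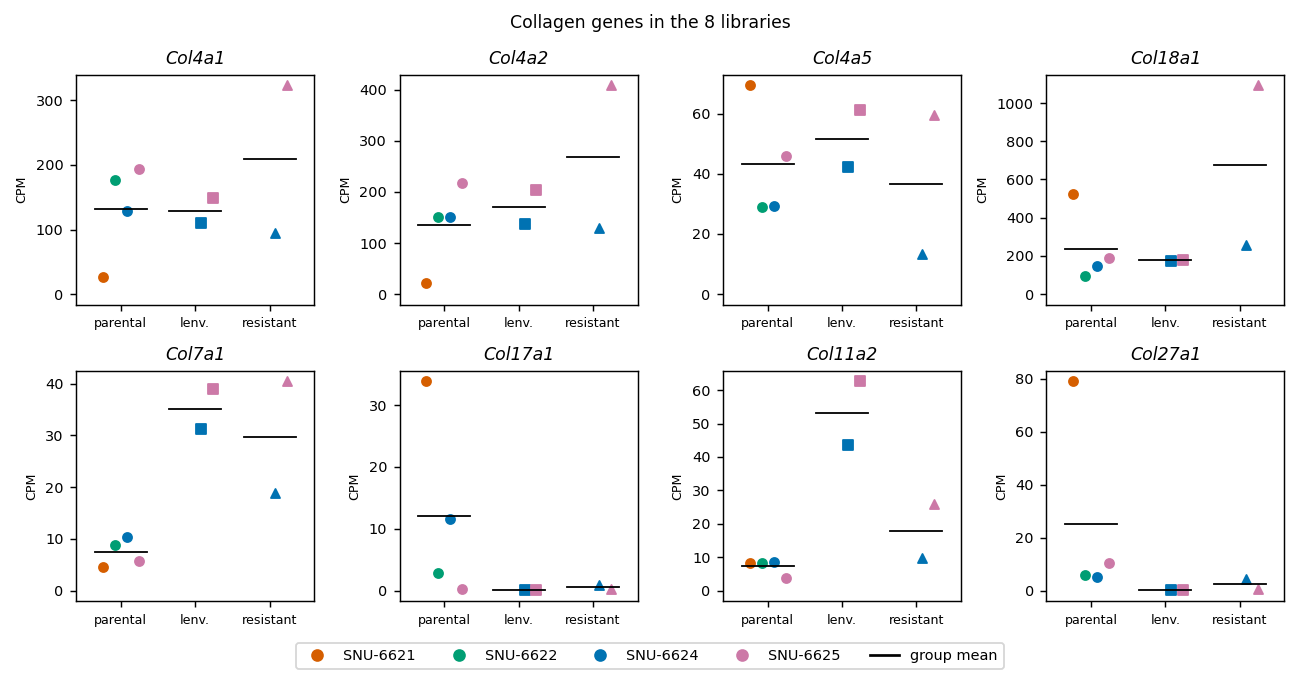
CPM of 8 collagen genes in the 8 libraries, drawn as for the laminins. Col7a1 and Col11a2 are higher in both lenvatinib libraries than in all 4 parental ones, Col27a1 and Col17a1 are near 0 there, and resistant SNU-6625 is highest in Col4a1, Col4a2 and Col18a1.

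Differences were also taken within each line. On log2(CPM + 0.5), 4 of 40 genes were at least 2-fold higher in both lines (Col11a2, Col7a1, Col9a3 and Itgb5), against 4.04% of all genes tested. At least 2-fold lower in both lines were 6 of 40 (Lama3, Lamb3, Itga2, Itga7, Itgb4 and Col27a1), against 9.65%. None of the 40 moved 2-fold in opposite directions in the 2 lines (0.0293% of all genes). Set against all 4 parental lines, 8 of 40 genes were above and 10 of 40 below each of them in both lenvatinib libraries, where 30.9% and 21.4% of all genes were. Without SNU-6621 these were 11 and 12 of 40, against 37.8% and 27% of all genes.

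The third question is how resistant cultures differ from their parental lines. No gene of the 40 was called by edgeR, nor was any of the 17038 tested (0%), while 10 of 40 had an unadjusted p under 0.05 (15.9% of all genes did). DESeq2 called 8 of 40 (6.48% of all genes) and limma-voom 0. The comparison shares its parental libraries with the lenvatinib comparison. The 2 resistant cultures differed widely. Collagen genes summed to 558.0 CPM in resistant SNU-6624 and 2004 CPM in resistant SNU-6625, against 543.5 and 699.0 CPM in their parental lines. Integrin genes summed to 2459 and 5295 CPM, against 2269 and 2775 CPM. Of the 40 genes, 21 were higher than parental in SNU-6624 and 31 in the other line. The median differences of the 40 were 0.06 and 0.68 on log2(CPM + 0.5), against 0.01 and -0.18 over all genes.

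Resistant SNU-6625 carried most of the higher values. Itga2 had 6.56 and 11.5 CPM in parental and 12.4 and 184 CPM in resistant libraries. Col18a1 had 149 and 189, then 259 and 1095 CPM (log2 difference 1.91, SE 0.64, edgeR adjusted p = 0.289). Itgb4 had 892 and 1166, then 909 and 2006 CPM, and Itga6 had 451 and 572, then 370.4 and 1040.5 CPM.

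Type IV collagen was lower in 1 resistant line and higher in the other. Col4a1 had 128 and 193, then 94.6 and 324 CPM, and Col4a2 had 152 and 217, then 129 and 409 CPM. The laminin chain Lamb2 went the other way, with 179 and 149.8, then 227 and 55.4 CPM.

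Several genes differed from parental in the same direction in both lines, and those named here are examples. The amounts were unequal for Itga3, Itga7, Lama3 and Col7a1. Col7a1 had 10.4 and 5.73 CPM in parental and 18.8 and 40.4 CPM in resistant libraries (1.91, SE 0.57, edgeR adjusted p = 0.27). Both resistant values of Col7a1 were above all 4 parental lines. Itgb6 had 10.3 and 12.0 CPM in parental and 21.4 and 30.3 CPM in resistant libraries (1.30, SE 0.28, edgeR adjusted p = 0.247). Both were above all 4 parental lines, which ranged from 10.3 to 12.0 CPM. Lamb1 had 14.0 and 23.7, then 27.4 and 38.8 CPM (0.93, SE 0.16, edgeR adjusted p = 0.247). Lama3 had 12.1 and 13.6 CPM in resistant libraries, below all 4 parental lines (-1.42, SE 0.28, edgeR adjusted p = 0.247). Itga7 had 22.7 and 33.1, then 9.97 and 3.49 CPM (-2.09, SE 0.51). Itga3 had 349 and 395, then 609 and 1312 CPM (1.39, SE 0.37).

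At least 2-fold higher in both lines was 1 of 40 genes, Itgb6, against 1.14% of all genes, and 1 of 40, Itga7, was 2-fold lower, against 2.62%. None moved 2-fold in opposite directions (0.411% of all genes). Above all 4 parental lines were 7 of 40 (10.3% of all genes), and 3 of 40 were below (15.1%): Lama3, Itga7 and Col27a1. Without SNU-6621 these were 10 of 40 (16.1% of all genes) and 4 of 40 (20.6%). Left without resistant SNU-6624, the fit called 26 of 43 genes (32.3% of all genes), and without resistant SNU-6625 it called 2 of 42 (3.26%).

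**Figure D5:**
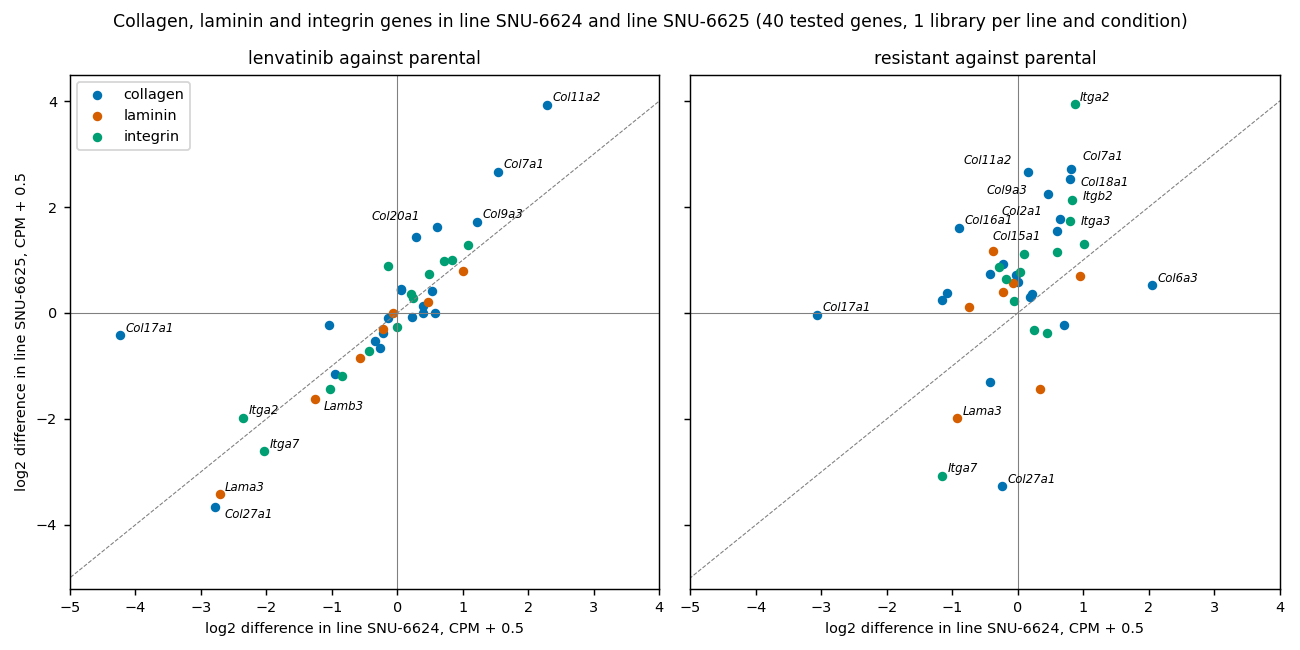
Log2 difference from parental on CPM + 0.5 in line SNU-6624 (horizontal) and SNU-6625 (vertical) for the 40 tested genes, lenvatinib on the left and resistant on the right; the dashed line marks equal differences. In resistant cultures 31 of 40 points lie above 0 vertically and 21 of 40 horizontally.

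The last comparison sets resistant against lenvatinib-treated cultures of the same 2 lines. Resistant cultures had more Lamb1, Itgb6 and Lama3 transcript. Lamb1, a beta chain of the widespread laminins, had 11.9 and 19.1 CPM in lenvatinib and 27.4 and 38.8 CPM in resistant libraries (log2 fold change 1.28, SE 0.16, edgeR adjusted p = 0.0365). Itgb6 had 7.51 and 7.08, then 21.4 and 30.3 CPM (1.98, SE 0.29, edgeR adjusted p = 0.0404). Lama3 rose from 3.18 and 4.73 to 12.1 and 13.6 CPM (1.90, SE 0.29, edgeR adjusted p = 0.0420). These were 3 of 40 genes called, all higher; 6.23% of all genes were called and 4.14% called higher. None was called lower (2.08% of all genes), and 15 of 40 had an unadjusted p under 0.05 (30.4%). The groups did not overlap for any of these 3 genes. With 2 libraries per group and genes picked by the test on the same values, this adds no support. No share over all genes is given for it.

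Genes just outside the threshold were Lamb3, at 40.3 and 47.5, then 92.6 and 219 CPM (1.89, SE 0.35, edgeR adjusted p = 0.0545), and Itga2 (5.50, SE 1.02, edgeR adjusted p = 0.0545). Itgb4 had a log2 difference of 1.82 (SE 0.43, edgeR adjusted p = 0.0749) and Itga6 of 1.53 (SE 0.49, edgeR adjusted p = 0.129). Lamc1 and Col20a1 pointed the other way, at -1.01 (SE 0.38) and -1.37 (SE 0.42), neither called. At least 2-fold higher in both lines were 7 of 40 genes, against 5.51% of all genes, and 2 of 40, Col11a2 and Col20a1, were 2-fold lower, against 3.9%. None moved 2-fold in opposite directions (0.81%). All 3 calls were lost when any 1 parental or lenvatinib library was left out and without the filter on low counts (edgeR adjusted p = 0.0515 for Lamb1, 0.0566 for Itgb6, 0.0575 for Lama3), whereas 19 of 43 genes (34.9% of all genes) were called without resistant SNU-6624 and 21 of 42 (33%) without resistant SNU-6625. DESeq2 called 12 of 40 (20.8% of all genes). Lama3 and Lamb1 also lost the call without line as a term (edgeR adjusted p = 0.0681 and 0.104), and Lama3 on library size alone (0.0515). Resistant cultures carry the control label, so being resistant and being untreated cannot be told apart here.

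Other genes of matrix and adhesion, in lists chosen with earlier results of these data known, were called in small numbers; over all genes tested, 4.08% fell and 1.7% rose after lenvatinib. After lenvatinib 4 of 15 tested basement membrane and other matrix genes fell and 0 rose: Tgfbi (-3.71, SE 0.52), Spp1 (-3.10, SE 0.51), the perlecan gene Hspg2 (-1.32, SE 0.21) and Lgals3 (-1.29, SE 0.21). Of 23 integrin adaptors 2 fell, Tns4 (-2.14, SE 0.32) and Fermt1 (-2.11, SE 0.19), the epithelial kindlin that activates integrins. Fermt1 had 152.8 and 215.6 CPM in parental and 41.7 and 48.0 CPM in lenvatinib libraries. Of 13 collagen processing genes the cross-linking enzyme gene Loxl4 (-2.80, SE 0.16) and the procollagen protease enhancer gene Pcolce (-1.92, SE 0.30) fell, and the lysyl hydroxylase gene Plod1 rose (1.90, SE 0.22). Of 14 proteases and inhibitors 1 fell, Mmp15 (-1.58, SE 0.16). Of 9 other genes of matrix receptors and matrix-binding proteins 1 fell, Lgals3bp (-2.09, SE 0.23), which does not encode a receptor. No receptor gene of that list was called. None of 5 hemidesmosome partners was called by edgeR, with 0 at an unadjusted p under 0.05. Values in brackets here are log2 fold changes. The called genes of these lists had edgeR adjusted p-values from 0.0275 for Loxl4 to 0.0479 for Spp1. Whether these calls hold without single libraries is not given here.

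Several of these genes went back in the other direction when resistant was set against lenvatinib, where 4.14% of all genes rose. Loxl4 (2.36, SE 0.15), Fermt1 (1.73, SE 0.18), Hspg2 (1.56, SE 0.21), Spp1 (5.48, SE 0.56), Lgals3 (2.51, SE 0.22), Mmp15 (1.53, SE 0.16) and Lgals3bp (2.13, SE 0.23) rose. So did the matricellular gene Thbs1 (2.62, SE 0.30), the hemidesmosome linker gene Dst (1.97, SE 0.30), Tns3, Mmp14 and the urokinase gene Plau. The edgeR adjusted p-values of these genes ran from 0.0174 for Loxl4 to 0.0432 for Dst. The 2 comparisons share the lenvatinib libraries, so the reversal is no independent result.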

How the data were processed

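RNA-seq was analysed in 8 mouse organoid libraries. The authors deposited whole-number read counts per gene, with no normalization. The submitters' processing notes name build mm10 and the tools HISAT2 2.1.0, StringTie 2.1.3b, Bowtie2 2.3.4.1, Trimmomatic 0.38 and FastQC 0.11.7; how reads were counted and whether strand was used is not given in these sources, so overlapping genes cannot be told apart with certainty. The TruSeq Stranded mRNA LT kit was used, per the labels' protocols.

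CPM was computed on total counts. The quasi-likelihood test of edgeR 4.0.16 (R 4.3.3) was fitted to all genes in the 6 libraries of the lines with all 3 conditions. Terms were condition and line, with scaling by TMM and a filterByExpr filter (17038 genes, 2 residual degrees of freedom, coefficient of variation 0.336). Line was a term because both lines enter each group: deviations of same-line libraries correlated at 0.288 to 0.504. Adjusted p-values are Benjamini-Hochberg values; SE is the size of the log2 fold change over the square root of F. The step was also run on simulated counts, with 1 common spread for all genes and line shifts equal in all conditions. That setting is simpler than these data, so it lends the calls no support. Alternatives used DESeq2 1.42.0, limma 3.58.1, other scaling and filters, and each library left out. Positions and promoter windows are RefSeq GRCm38.p6, matched for 76 genes by identifier (windows for 56); lengths are GENCODE vM21. Statistics were given for called genes, the 10 highest and a fixed set of chains. Other genes, such as Col11a2, Col27a1, Itga7 and Itgb5, were named after their values were seen. A laminin gene is counted but not reported here. The genes and lists were chosen with earlier results of these data known.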

Additional observations from a re-analysis of the deposited data

Results flagged for a closer look

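For genes with a mean of at least 1 CPM in the parental lines, the gap of the highest or lowest of the 4 lines to its neighbour was divided by the range of the 4. Chance flags about 1 in 20 such genes only if values are normally spread and genes are independent. These genes share the same 4 libraries, and no share over all genes is given for this check. SNU-6621 was at least 2-fold above the next line in 8.22% of 12667 protein coding genes. Of 32 genes checked, 9 stood above Dixon's 95% critical value. In 8 of them the line that stood apart was SNU-6621, on the high side: Itga1 (ratio 1.0), Col6a1 (0.996), Itga2b (0.985), Col27a1 (0.931), Itgb2 (0.901), Lamb1 (0.895), Itga2 (0.888) and Itga3 (0.845). In Col11a2 (0.927) it was SNU-6625, with 3.65 CPM against 8.22 to 8.58 CPM. Itga1, Col6a1 and Itgb2 reached a mean of 1 CPM only through SNU-6621. Their flags are therefore not independent of the entry rule. Itgb2, the beta chain of leukocyte integrins, had 9.16 CPM in SNU-6621 and 0.224 to 1.11 CPM in the other parental lines. The 9 leukocyte genes were mixed in SNU-6621: Ptprc had 0 counts, while Cd14 had 53.6 and Cd68 25.4 CPM. Their sum was 79.7 CPM there, inside the 57.8 to 163.1 CPM of the 4 parental lines. Their part in the Itgb2 level was not tested. No gene of the 40 tested moved at least 2-fold in opposite directions in the 2 lines in any comparison.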

How the results depend on the processing

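Calls depended on the tool and on single libraries. Genes called for lenvatinib against parental, resistant against parental and resistant against lenvatinib numbered 1, 0 and 3 with edgeR as described, 11, 8 and 12 with DESeq2, and 3, 0 and 5 with limma-voom. With no replicate block (line left out as a term) they were 1, 0 and 2. Without a filter on low counts, where more genes enter the adjustment, the last count was 0 of 54 (15 unadjusted). Leaving out 1 library gave 0 to 24, 0 to 26 and 0 to 21: 0 in the first and last comparison without any parental or lenvatinib library, 24 and 23 for lenvatinib against parental without resistant SNU-6624 and SNU-6625 (43.3% and 43.7% of all genes), and 19 and 21 for resistant against lenvatinib (34.9% and 33%). The resistant libraries enter the first comparison through the shared spread. Parental levels kept 19 to 20 genes at 10 CPM. Genes moved 2-fold in both resistant lines numbered 2, and 5 with a pseudocount of 0.1, 1 with 2, and 1 on TMM-scaled CPM. Library size alone, against TMM, moved the median of all genes for resistant against lenvatinib from 0.02 to -0.14, and the share of calls that were higher from 66.5% to 47.3%, and from 29.3% to 43.4% for lenvatinib against parental.

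Of named genes, none that was called changed sign. Others not called did: Col18a1 was -0.02 for lenvatinib with no replicate block, and Itga5 -0.02 for resistant against parental on library size alone. Leaving out 1 library turned these log2 fold changes, given as ranges: for lenvatinib against parental, Col18a1 -0.75 to 0.55, Col4a1 -0.89 to 0.01, Col4a2 -0.59 to 0.18, Itga3 -0.09 to 0.53, Itga5 -0.08 to 0.74, Itgb1 -0.51 to 0.04, Lama5 -0.33 to 0.11; for resistant against parental, Col17a1 -3.73 to 0.19, Col4a1 -0.52 to 0.99, Col4a2 -0.26 to 1.12, Itga5 -0.77 to 0.64, Itga6 -0.41 to 1.16, Itgb1 -0.16 to 0.51, Itgb4 -0.12 to 1.09, Lama5 -0.25 to 0.58, Lamb3 -0.20 to 0.86, Lamc1 -0.84 to 0.37; for resistant against lenvatinib, Col4a1 -0.13 to 1.39, Col4a2 -0.07 to 1.33, Itga5 -1.11 to 0.28, Lama5 -0.14 to 0.71. The cause was not tested. The fit with no replicate block lost the calls of Lama3 and Lamb1 for resistant against lenvatinib and kept the other calls of named genes. Depth limits genes under about 1 CPM, where fold changes are uncertain.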
